A study of Homo sapiens with 4 samples.

Results

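The 10 genes described here encode the core of the BCL2 family, the proteins that decide whether the outer mitochondrial membrane is opened during apoptosis. They are BCL2, BCL2L1, MCL1, BAX, BAK1, BBC3, PMAIP1, BID, BCL2L11 and BAD, chosen as a named list from the 19970 protein-coding genes of GENCODE 44 on hg38. For each gene, every MTF-1 peak that touched the gene or the 20 kb on either side was collected, which gave 62 of the 77070 sites in the series. MTF-1, the metal response element binding transcription factor, was mapped by CUT&RUN, in which an antibody directs a nuclease to cut and release the DNA near a bound protein. The cells were MDA-MB-231, an established human breast cancer line. Control cells (2 libraries) were matching cells not exposed to cadmium, and cadmium cells (2 libraries) had been passaged in rising cadmium sulfate until they grew in 10 µM. Both groups were mapped with the same antibody and came from the same line, so the data describe 1 line and 1 adapted population.

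The family works as a balance of 3 kinds of protein. BCL2, BCL2L1 (BCL-xL) and MCL1 hold apoptosis back by binding and sequestering their pro-apoptotic relatives. BAX and BAK1 are the effectors that form pores in the mitochondrial membrane and let cytochrome c out. BBC3 (PUMA), PMAIP1 (NOXA), BID, BCL2L11 (BIM) and BAD are BH3-only proteins, which sense damage or the loss of survival signals and neutralize the anti-apoptotic members or activate the effectors. Cadmium is known as an inducer of oxidative stress and of apoptosis in many cell types, and MTF-1 is known for turning on metallothionein genes when zinc or cadmium rises.

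The libraries of each group were merged before peaks were called, so 1 peak list stood for each condition. The control list held 69299 peaks over 130 Mb and the cadmium list held 60130 peaks over 90.9 Mb, a ratio of covered bases of 0.697. A peak position carries no read count, so the depth is unknown, no spread between replicates can be given, and no comparison below has a test. Peak edges fell on a grid of 200 bp, which is the finest difference the lists can show. A site was called lost when a control peak shared no base with a cadmium peak, gained when a cadmium peak had no control peak under it, and conserved when peaks of both lists overlapped.

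MTF-1 peaks stayed at the canonical start site of every member. All 10 members had a peak within 1 kb of the canonical start site in control, where 68.8% of protein-coding genes had one, and all 10 had one in cadmium, where 67.1% of protein-coding genes had one. Sites that were lost or gained lay away from the members' canonical start sites, since none of these 13 sites held one. The lost BBC3 peak did hold an annotated start of another BBC3 transcript, 632 bp from its center. At least 1 lost site lay near 6 members (BCL2L1, MCL1, BBC3, PMAIP1, BID and BAD), beside 46.1% of all protein-coding genes. At least 1 gained site lay near 3 members (BAX, BID and BAD), beside 31.2% of all protein-coding genes. BCL2, BAK1 and BCL2L11 had neither.

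Of the 62 sites, 49 were conserved (79.0%), 9 were lost (14.5%) and 4 were gained (6.45%). Among the 57686 sites within the same windows of all protein-coding genes, 66.2% were conserved, 22.8% were lost and 11% were gained. The members' windows therefore held a larger share of conserved sites than coding gene windows in general, with no test of that difference. The centers of the lost sites lay between 7999 and 71368 bp from the member's canonical start site, and those of the gained sites between 21725 and 40469 bp. Conserved sites had a median width of 2799 bp, lost sites 1599 bp and gained sites 1199 bp.

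**Figure D1:**
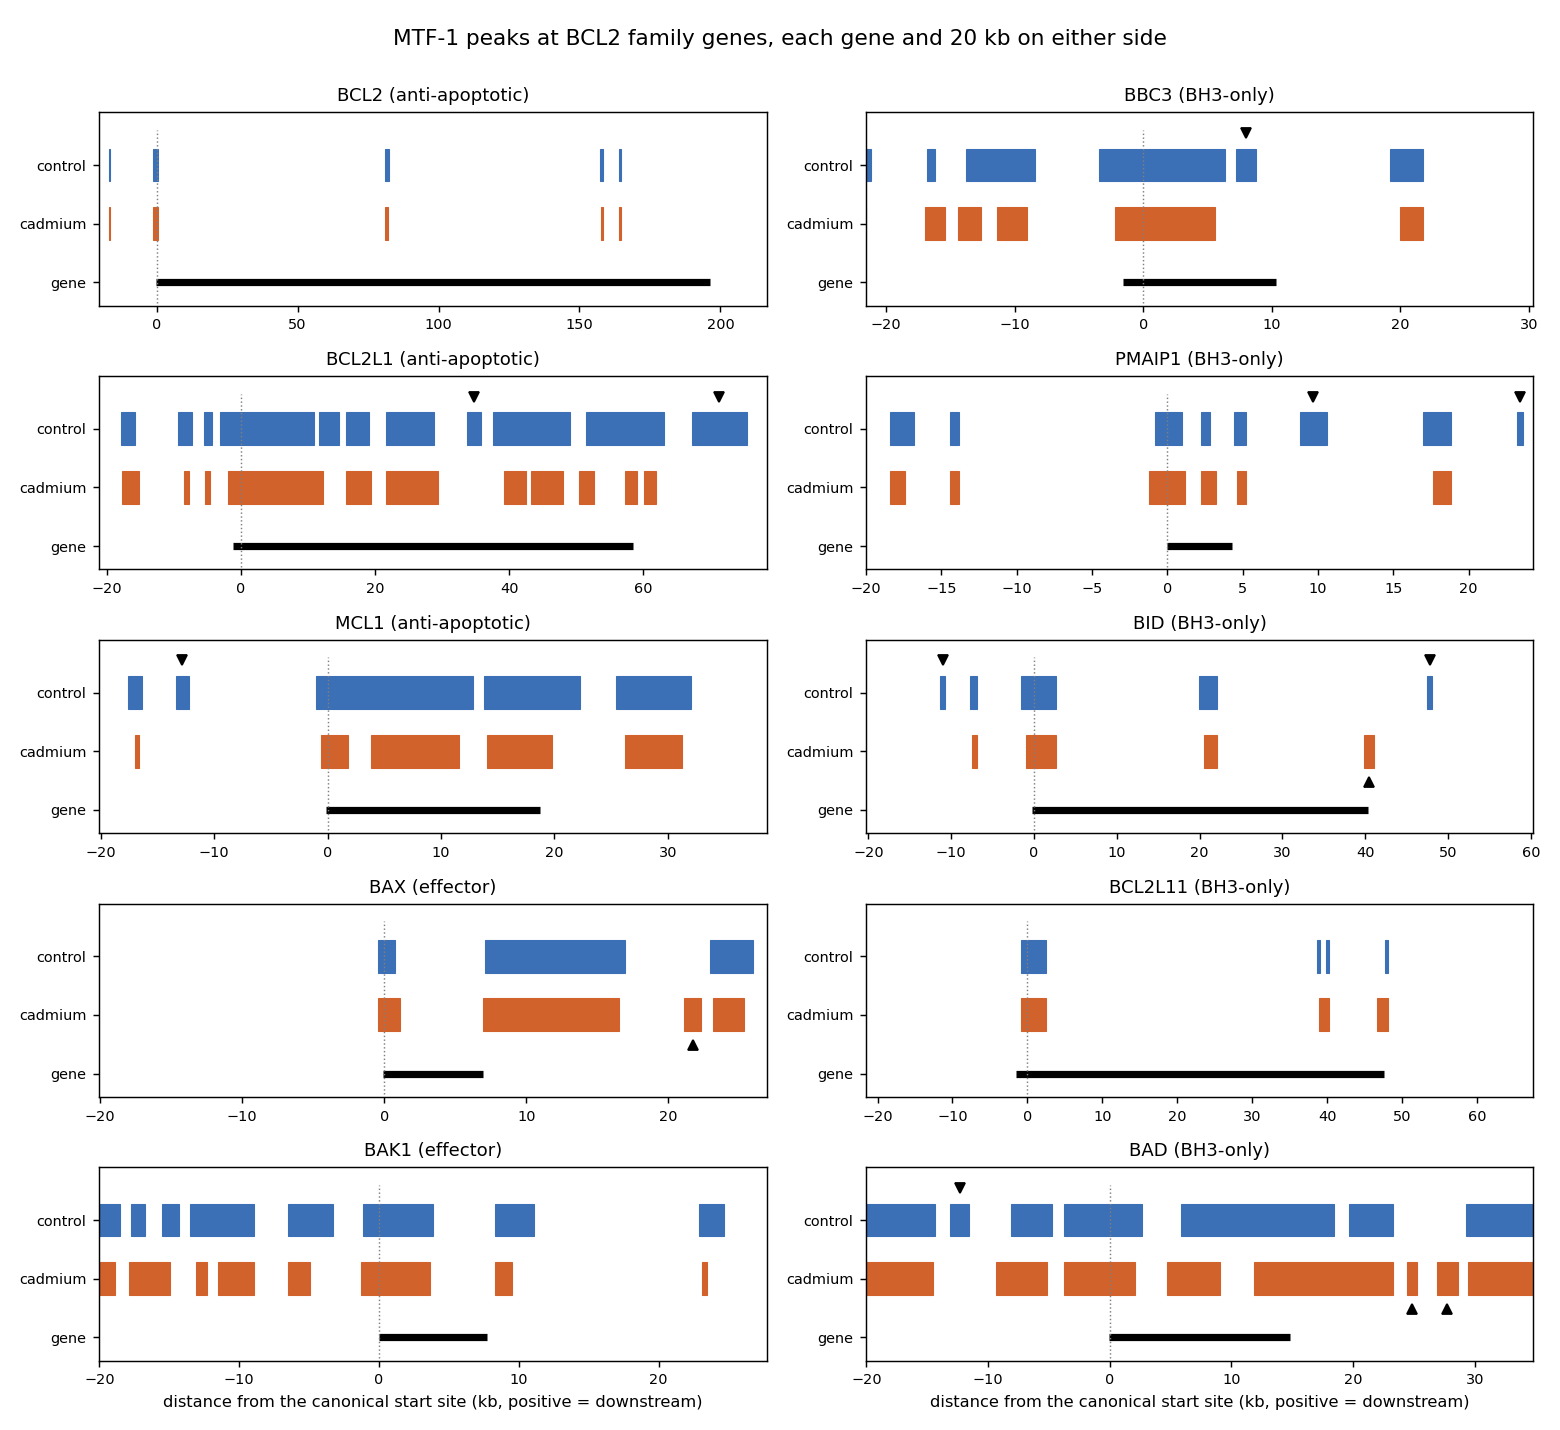
MTF-1 peaks in the window of each member, drawn by distance from its canonical start site in kb, with the control list in blue, the cadmium list in orange and the gene body in black. Downward triangles mark the 9 lost sites and upward triangles the 4 gained sites, and a peak of each list covers the dotted start-site line in all 10 panels.

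Over all 10 windows, which span 811 kb, control peaks covered 219 kb (27.1%) and cadmium peaks covered 175 kb (21.5%), and 156 kb was covered by both. The ratio of cadmium to control bases was 0.796. By member, the ratio ran in ascending order from BCL2L1 (0.66), MCL1 (0.686), PMAIP1 (0.723), BAK1 (0.744) and BBC3 (0.756) through BID (0.833) and BCL2 (0.885) to BAD (1.01), BAX (1.04) and BCL2L11 (1.35). The cadmium list covered fewer bases at 7 members, of which 4 are pro-apoptotic, and more at 3, which are all among the 7 pro-apoptotic members. BAD and BAX lay close to 1, at 1.01 and 1.04. At both, the rise was smaller than the gained peaks in the window, which lay inside the neighboring genes PLCB3 and GYS1. The lack of replicates means that no neighbors in this order can be said to differ.

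The members' ratios lay within the range common among genes. Their median was 0.795, and the median over the 17316 protein-coding genes with a ratio was 0.762, with quartiles of 0.574 and 1. The ratio was above the median of all genes at 5 of the 10 members, and above the genome-wide ratio at 8 of 10, beside 58.8% of all genes with a ratio. BCL2L1 was the single member whose covered bases were lower in cadmium by at least 1.5 times, a call made for 37.3% of all protein-coding genes with a ratio. No member was higher by at least 1.5 times, which 5.59% of those genes were. BCL2L11 came nearest, at the percentile of 92 among all genes.

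**Figure D2:**
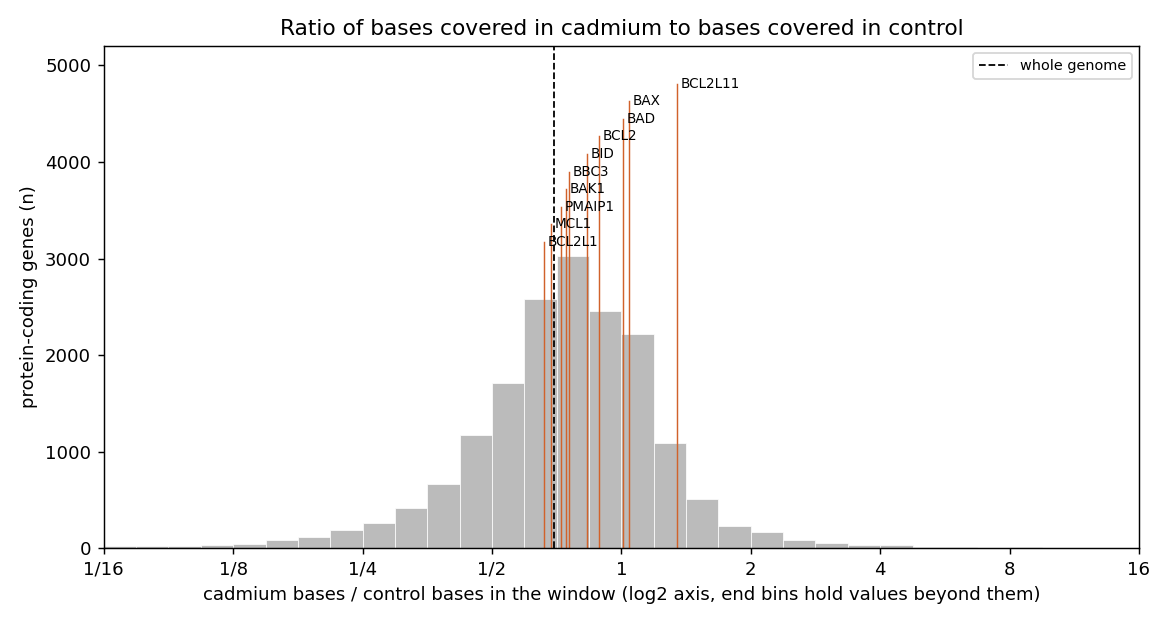
Histogram of the ratio of cadmium to control bases in the gene and its 20 kb flanks, on a log2 axis, over 17316 protein-coding genes, with the 10 members as orange lines and the genome-wide ratio of 0.697 as a dashed line. The members run from BCL2L1 at 0.66 to BCL2L11 at 1.35, and 8 of the 10 lie to the right of the dashed line, as do 58.8% of all genes plotted.

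The share of the window that lay inside peaks varied far more between members than between conditions. In control it was 2.19% at BCL2, 5.16% at BCL2L11, 10.4% at BID, 21.2% at PMAIP1, 29.8% at BAX, 39.2% at BBC3, 44.2% at BAK1, 53% at MCL1, 66.7% at BCL2L1 and 70.8% at BAD. In cadmium it was 1.94% at BCL2, 6.96% at BCL2L11, 8.68% at BID, 15.3% at PMAIP1, 29.6% at BBC3, 31.1% at BAX, 32.9% at BAK1, 36.4% at MCL1, 44% at BCL2L1 and 71.6% at BAD. The median over the members was 34.5% in control and 30.4% in cadmium, and over all protein-coding genes 7.07% and 5.17%. BCL2 was the sparsest member in both lists and BAD the densest.

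**Figure D3:**
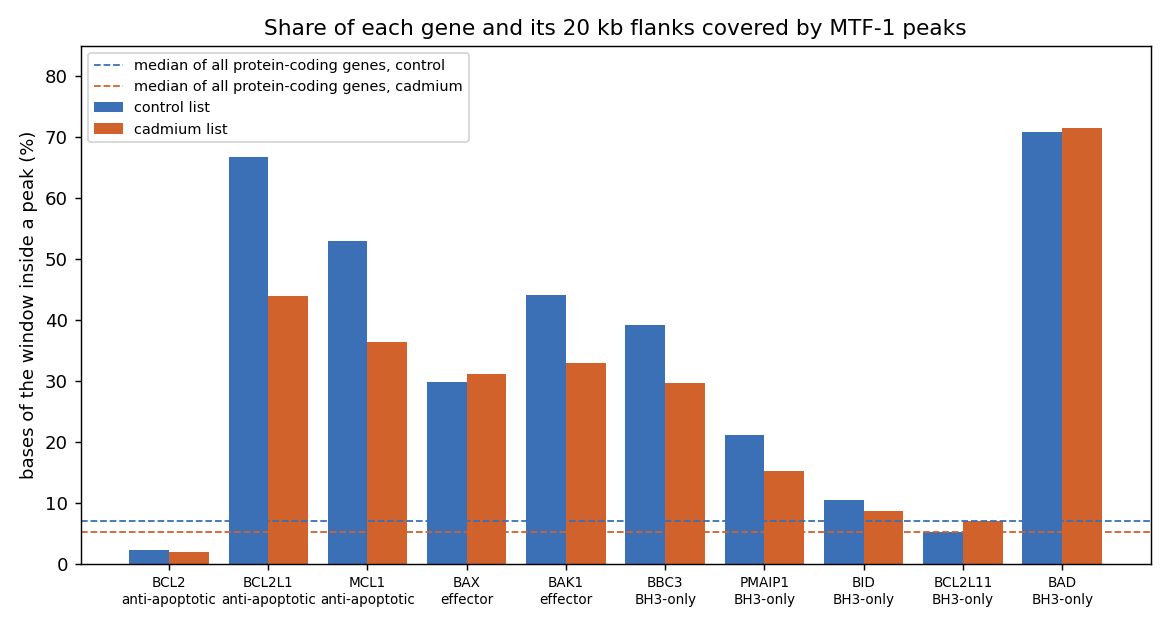
Percent of each member's gene and 20 kb flanks that lay inside control peaks (blue) and cadmium peaks (orange), as bars from 0, with dashed lines at the medians of all protein-coding genes (7.07% and 5.17%). BCL2 lies below both lines, and the fall from control to cadmium is widest at BCL2L1 (66.7% to 44%) and MCL1 (53% to 36.4%).

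The 3 anti-apoptotic genes together went from 103 kb covered in control to 69.8 kb in cadmium (ratio 0.679), with 17 conserved, 3 lost and 0 gained sites. BCL2L1 and MCL1 account for that change, and BCL2 kept nearly the same peaks. Without BCL2L1, which held the most covered bases of any member in control, the ratio over BCL2 and MCL1 was 0.714. The ratios of single anti-apoptotic genes (0.66 to 0.885) overlapped those of the pro-apoptotic genes (0.723 to 1.35).

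BCL2, the founding anti-apoptotic member, lies at chr18:63123346-63320128 on the minus strand. Control peaks covered 5195 bp of its window and cadmium peaks 4595 bp, and all of the cadmium bases lay inside control peaks. All 5 of its sites were conserved, in a window of 237 kb. The start-site peak was identical in both lists, 1999 bp at chr18:63319201-63321199, reaching 1430 bp upstream and 568 bp downstream. The site in intron 2 at chr18:63161601-63162599 was narrower in cadmium (999 bp against 599 bp).

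The identical start-site peak of BCL2 holds strings of the metal response element core, the DNA letters that MTF-1 is known to recognize. The core was searched as TGCACNC or TGCGCNC on both strands, and these letters stood in 29.6% of the 35116 RefSeq promoters of 300 bp (250 before and 50 after the start). An entry was found for 9 of the 10 members (15 entries), and 6 of the 15 entries, from 5 members, held the core. At BCL2 the core stood at -136 and -105 from the RefSeq start. Both windows are shown with the core in capitals, read 5′ to 3′ on the gene's strand, from hg38.
BCL2 core at -136, chr18:63319888-63319916, minus strand: gaggagaaaggGTGCGCAgcccggaggcg
BCL2 core at -105, chr18:63319857-63319885, minus strand: gtgcgccggtgGGGTGCAgcggaagaggg

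BCL2L1, which encodes BCL-xL, lies at chr20:31664452-31723989 on the minus strand. It lost the most covered bases of any member, from 66389 bp in control to 43789 bp in cadmium, and 26001 bp were covered in control alone. The start-site peak was kept, at 13999 bp in control and 14199 bp in cadmium, with its upstream reach shortened from 3131 bp to 1931 bp and its downstream reach extended from 10867 bp to 12267 bp. The extension reached into a separate control peak of 2999 bp in intron 2. Bases covered in control alone lay upstream of, within and downstream of the gene. Upstream, the sites at chr20:31730201-31732199 and chr20:31727201-31728399 went from 1999 to 799 bp and from 1199 to 799 bp, and the widest single loss lay downstream of the gene.

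In the distal part of BCL2L1 intron 2 a control peak of 11399 bp was replaced by cadmium peaks of 3199 and 4799 bp. Over the last exon and the adjoining intron and downstream bases a control peak of 11599 bp was replaced by 3 cadmium peaks of 2199, 1799 and 1799 bp. A further intron 2 peak of 2199 bp (chr20:31687001-31689199) was lost, 34.8 kb from the start site, and so was an 8199 bp peak downstream of the gene (chr20:31647401-31655599). That downstream peak was the widest lost site of any member, and the start site closest to it was that of COX4I2, 13567 bp from its center, rather than that of BCL2L1.

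The lost sites of BCL2L1 are shown around strings known from other factors. The AP-1 string, bound by FOS and JUN proteins, was searched as TGACTCA or its reverse complement TGAGTCA, and the forkhead string as GTAAACA or GTAAATA or ATAAACA or ATAAATA, each on both strands and with overlapping matches counted singly. The downstream lost peak, 8199 bp wide, held 3 AP-1 strings, 15 forkhead strings and 17 metal response element cores, and 1 AP-1 string is printed. Most of these forkhead strings were overlapping matches in runs of repeats. The intronic lost peak held a forkhead string near its center. The promoter window with the metal response element core at -64 is shown for the kept start site. Capitals mark the string.
BCL2L1 downstream lost peak, chr20:31652801-31652927, plus strand: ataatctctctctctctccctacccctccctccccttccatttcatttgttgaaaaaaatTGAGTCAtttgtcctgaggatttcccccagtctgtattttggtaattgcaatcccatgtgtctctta
BCL2L1 intron 2 lost peak, chr20:31688047-31688173, plus strand: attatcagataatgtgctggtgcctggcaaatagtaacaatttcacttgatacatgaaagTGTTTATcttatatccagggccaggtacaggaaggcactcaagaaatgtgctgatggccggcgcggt
BCL2L1 promoter core at -64, chr20:31722915-31722943, minus strand: agagccaagggGCGTGCAagagagagggg

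MCL1, a short-lived anti-apoptotic protein, lies at chr1:150560895-150579738 on the minus strand. Covered bases went from 31195 bp in control to 21395 bp in cadmium, and every cadmium base lay inside a control peak. The start-site peak changed more than at any other member. It was 13799 bp wide in control, reached 12809 bp downstream and covered the whole coding part of the gene, and in cadmium it was 2399 bp wide and reached 1809 bp downstream. A second cadmium peak of 7799 bp covered part of the rest, so that 10198 bp of the site remained.

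The other MCL1 sites were narrower in cadmium as well. The site at chr1:150557401-150565799, downstream of the canonical transcript and partly inside the annotated gene, went from 8399 to 5799 bp. The one at chr1:150547601-150554199, which holds the start site of the neighboring gene ADAMTSL4, went from 6599 to 4999 bp. Upstream, 1 site shrank from 1199 to 399 bp and another of 1199 bp was lost (chr1:150591801-150592999, 12.8 kb from the start site). The lost peak held 6 forkhead strings, most of them in a run of repeats, and the one outside the run is printed on the plus strand, where it reads as its reverse complement.
MCL1 upstream lost peak, chr1:150592477-150592603, plus strand: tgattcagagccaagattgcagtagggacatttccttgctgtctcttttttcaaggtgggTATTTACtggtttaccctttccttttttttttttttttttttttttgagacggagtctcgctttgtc

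The pore-forming effectors BAX and BAK1 went from 35.1 kb covered in control to 30.3 kb in cadmium (ratio 0.863), with 10 conserved sites, 0 lost and 1 gained. BAK1 was covered over fewer bases in cadmium (0.744). BAX stayed close to 1 (1.04), and its gained site lay inside the neighboring gene GYS1.

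BAX lies at chr19:48954815-48961798 on the plus strand. Control peaks covered 13997 bp of the window and cadmium peaks 14596 bp. The start-site peak was 1199 bp in control and 1599 bp in cadmium, with the same upstream edge (474 bp) and a downstream edge that moved from 724 to 1124 bp. Most of the covered bases belonged to a site downstream of the gene (chr19:48961801-48971799) that holds the start site of FTL, the ferritin light chain of iron storage, and went from 9799 to 9599 bp. The gained site of 1199 bp (chr19:48976001-48977199) lay 21.7 kb from the BAX start site, inside GYS1, a glycogen synthase gene whose start site was the closest at 1386 bp.

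The BAX gained site held the metal response element core at 2 places, and the one nearer its center is printed in its reverse orientation.
BAX downstream gained peak, chr19:48976625-48976751, plus strand: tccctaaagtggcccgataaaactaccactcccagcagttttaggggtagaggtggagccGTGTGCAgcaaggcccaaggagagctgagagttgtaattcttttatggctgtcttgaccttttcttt

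BAK1 lies at chr6:33572547-33580293 on the minus strand and kept all 7 of its sites. Covered bases went from 21086 to 15686 bp. The start-site peak was 4999 bp wide in both lists, shifted by 200 bp toward upstream in cadmium. Of the other 6 sites, 5 were covered over fewer bases in cadmium, from 0.222 of the control bases at the site farthest downstream (1799 to 399 bp) to 0.739. The exception was an upstream site at chr6:33594601-33598199, where 2 control peaks with 2198 bp gave way to 1 cadmium peak of 2999 bp.

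The 5 BH3-only genes went from 81.6 kb covered in control to 74.7 kb in cadmium (ratio 0.915), with 22 conserved, 6 lost and 3 gained sites. BBC3, PMAIP1 and BID were covered over fewer bases in cadmium and BCL2L11 over more, while BAD stayed close to 1 (1.01).

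BBC3 encodes PUMA, a BH3-only protein best known as a p53 target, and lies at chr19:47220822-47232766 on the minus strand. Covered bases went from 20361 to 15395 bp. The start-site peak spanned most of the gene and narrowed at both ends, from 9799 to 7799 bp, with the upstream reach going from 3400 to 2200 bp and the downstream reach from 6398 to 5598 bp. A control peak of 1599 bp in intron 3 (chr19:47222401-47223999), 8 kb from the canonical start site, was lost. This lost peak held an annotated start of another BBC3 transcript, 632 bp from its center. Upstream, a peak of 599 bp widened to 1599 bp, and a control peak of 5399 bp was replaced by cadmium peaks of 1799 and 2399 bp.

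BBC3 was the only member with an AP-1 string in a RefSeq promoter entry (at -113). That was 1 of the members' 15 entries, beside 4.95% of all entries. The position is counted from the RefSeq start. That entry (chr19:47232618-47232917) lies wholly upstream of the canonical BBC3 start at chr19:47231199, from which the peaks above were measured. The promoter window is printed with the AP-1 string in capitals.
BBC3 promoter AP-1 string at -113, chr19:47232767-47232840, minus strand: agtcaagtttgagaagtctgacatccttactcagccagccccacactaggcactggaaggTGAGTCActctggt

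PMAIP1 encodes NOXA, which mainly neutralizes MCL1, and lies at chr18:59899996-59904305 on the plus strand. Covered bases went from 9392 to 6794 bp, yet the peaks at the gene itself widened. The start-site peak went from 1799 to 2399 bp, extended on both sides, and the site over the last exon (chr18:59902201-59903199) went from 599 to 999 bp. The decrease lay outside the gene, where a downstream peak of 1799 bp (chr18:59908801-59910599) and one of 399 bp (chr18:59923201-59923599) were lost. Between them a conserved site went from 1799 to 1199 bp.

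The wider of the PMAIP1 lost peaks, 9.7 kb from the start site, held 1 AP-1 string and 5 forkhead strings. It is shown at the forkhead string GTAAACA and at the AP-1 string, followed by the promoter window with the metal response element core at -223.
PMAIP1 downstream lost peak, forkhead, chr18:59909427-59909553, plus strand: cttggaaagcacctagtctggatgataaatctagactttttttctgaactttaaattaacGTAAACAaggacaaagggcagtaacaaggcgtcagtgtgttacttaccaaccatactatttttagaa
PMAIP1 downstream lost peak, AP-1, chr18:59910409-59910535, plus strand: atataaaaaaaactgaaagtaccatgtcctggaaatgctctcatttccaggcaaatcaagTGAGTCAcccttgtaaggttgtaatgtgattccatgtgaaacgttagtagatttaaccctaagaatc
PMAIP1 promoter core at -223, chr18:59899746-59899839, plus strand: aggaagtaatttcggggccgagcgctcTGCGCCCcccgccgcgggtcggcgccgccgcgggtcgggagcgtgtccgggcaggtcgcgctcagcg

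BID links the death receptors to mitochondria once caspase-8 has cut it, and lies at chr22:17734138-17774770 on the minus strand. Covered bases went from 8395 to 6996 bp. The start-site peak went from 4199 to 3599 bp through its upstream edge alone (1530 to 930 bp), with the downstream edge at 2668 bp in both lists. A conserved site in intron 1 went from 2199 to 1599 bp.

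BID was 1 of 2 members, with BAD, that both lost and gained sites. A 599 bp peak 11 kb upstream (chr22:17785201-17785799) and another of 599 bp downstream (chr22:17726401-17726999) were lost. The latter lay inside the neighboring gene BCL2L13, another family member. A cadmium peak of 1199 bp was gained over the end of the gene (chr22:17733401-17734599), covering part of exon 6 with its 3′ UTR, and it was the only gained site that touched a member's gene body.

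The upstream lost peak of BID held the metal response element core in both orientations, and the downstream lost peak held an AP-1 and a forkhead string, of which the former is printed. The gained peak held 1 forkhead string, in the exon. Capitals mark these strings.
BID upstream lost peak, chr22:17785602-17785728, plus strand: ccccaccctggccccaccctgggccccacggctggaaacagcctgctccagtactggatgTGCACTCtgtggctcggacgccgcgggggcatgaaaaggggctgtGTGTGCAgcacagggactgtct
BID downstream lost peak, chr22:17726683-17726711, plus strand: gtgtttagtctTGAGTCAgaggaggagga
BID gained peak, chr22:17734531-17734559, plus strand: aagcttttcctTATTTATtttggtactac

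BCL2L11 encodes BIM, a direct activator of BAX and BAK1 and a known target of FOXO forkhead factors, and lies at chr2:111119378-111168444 on the plus strand. It had the highest ratio of any member, with 4596 bp covered in control and 6197 bp in cadmium. The start-site peak of 3399 bp (chr2:111120001-111123399) was identical in both lists. The added bases lay at the far end of the gene. In intron 3, 39.5 kb from the start site, the site at chr2:111159601-111161199 went from 2 control peaks with 798 bp in all to 1 cadmium peak of 1399 bp. Over the 3′ UTR and the bases beyond it, the site at chr2:111167601-111168999 went from 399 to 1399 bp, the largest relative increase of a conserved site at any member (ratio 3.51).

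The bases of these BCL2L11 sites that only cadmium peaks covered held 4 forkhead strings, and the AP-1 string past the end of the gene was covered in both lists. Forkhead strings also stood in cadmium-only bases at BCL2L1 and BAK1, and no rate over such bases was computed. Both strings of the intron 3 site, 1 of the strings over the 3′ UTR and the AP-1 string are printed. The promoter of BCL2L11 held a forkhead string at -223 and the metal response element core at -148, and lay inside the identical start-site peak. A forkhead string stood in 2 of the members' 15 promoter entries, the other being at BID, beside 13.6% of all RefSeq promoter entries.
BCL2L11 intron 3, cadmium only, first string, chr2:111160002-111160128, plus strand: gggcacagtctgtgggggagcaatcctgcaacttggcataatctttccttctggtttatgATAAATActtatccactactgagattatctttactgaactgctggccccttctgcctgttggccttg
BCL2L11 intron 3, cadmium only, second string, chr2:111160269-111160395, plus strand: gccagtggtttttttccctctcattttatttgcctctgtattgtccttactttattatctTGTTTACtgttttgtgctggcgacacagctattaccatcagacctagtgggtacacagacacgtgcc
BCL2L11 3′ UTR, cadmium only, chr2:111168367-111168395, plus strand: gcaatactgctGTAAATAactgcagattt
BCL2L11 past the gene end, both lists, chr2:111168613-111168739, plus strand: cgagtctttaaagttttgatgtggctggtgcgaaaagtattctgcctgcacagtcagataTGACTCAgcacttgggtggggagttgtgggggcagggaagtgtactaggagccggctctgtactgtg
BCL2L11 promoter forkhead string at -223, chr2:111120664-111120757, plus strand: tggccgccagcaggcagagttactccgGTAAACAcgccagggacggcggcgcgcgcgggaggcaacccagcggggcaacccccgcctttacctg
BCL2L11 promoter core at -148, chr2:111120706-111120832, plus strand: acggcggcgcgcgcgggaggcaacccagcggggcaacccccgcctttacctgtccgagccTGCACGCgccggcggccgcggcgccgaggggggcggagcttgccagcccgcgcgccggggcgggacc

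BAD, a BH3-only protein held inactive by survival kinases, lies at chr11:64269830-64284704 on the minus strand in a stretch crowded with genes. Control peaks covered 38869 bp of its window and cadmium peaks 39268 bp, shares above those of 99.2% and 99.7% of protein-coding genes. The start-site peak went from 6399 to 5799 bp, with its upstream edge kept at 3734 bp and the downstream edge drawn in from 2664 to 2064 bp. Many of these bases belong to neighbors, since the start-site peak also holds the start site of GPR137 and other sites hold those of KCNK4, CATSPERZ and FKBP2.

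Near BAD a control peak of 1599 bp was lost upstream (chr11:64296201-64297799), inside the potassium channel gene KCNK4, where an annotated KCNK4 start lay 138 bp from its center. Downstream, cadmium peaks of 799 bp (chr11:64259401-64260199) and 1799 bp (chr11:64256001-64257799) were gained inside PLCB3, a phospholipase gene. Both gained peaks held the AP-1 string, the narrower one in its central 500 bp, and they also held the metal response element core at 1 and 4 places. The windows around AP-1 strings are printed.
BAD downstream gained peak, 24.9 kb, chr11:64259874-64260000, plus strand: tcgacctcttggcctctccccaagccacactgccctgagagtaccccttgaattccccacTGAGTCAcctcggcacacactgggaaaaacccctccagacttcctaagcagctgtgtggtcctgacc
BAD downstream gained peak, 27.8 kb, chr11:64256178-64256304, plus strand: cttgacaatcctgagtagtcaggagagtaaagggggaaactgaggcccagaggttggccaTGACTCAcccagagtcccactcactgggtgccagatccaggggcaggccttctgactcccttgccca

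Across the members the start-site peak was wider in cadmium at BCL2L1, BAX and PMAIP1, of equal width at BCL2, BAK1 and BCL2L11, and narrower at MCL1, BBC3, BID and BAD. Among the 12641 protein-coding genes with a peak over the start site in both lists, it was wider in control at 61.1%, wider in cadmium at 25.8% and equal at 13%, with a median width of 2799 bp in control and 2199 bp in cadmium. The 300 bp promoter entries of the 9 members that had one were covered in full in both lists.

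**Figure D4:**
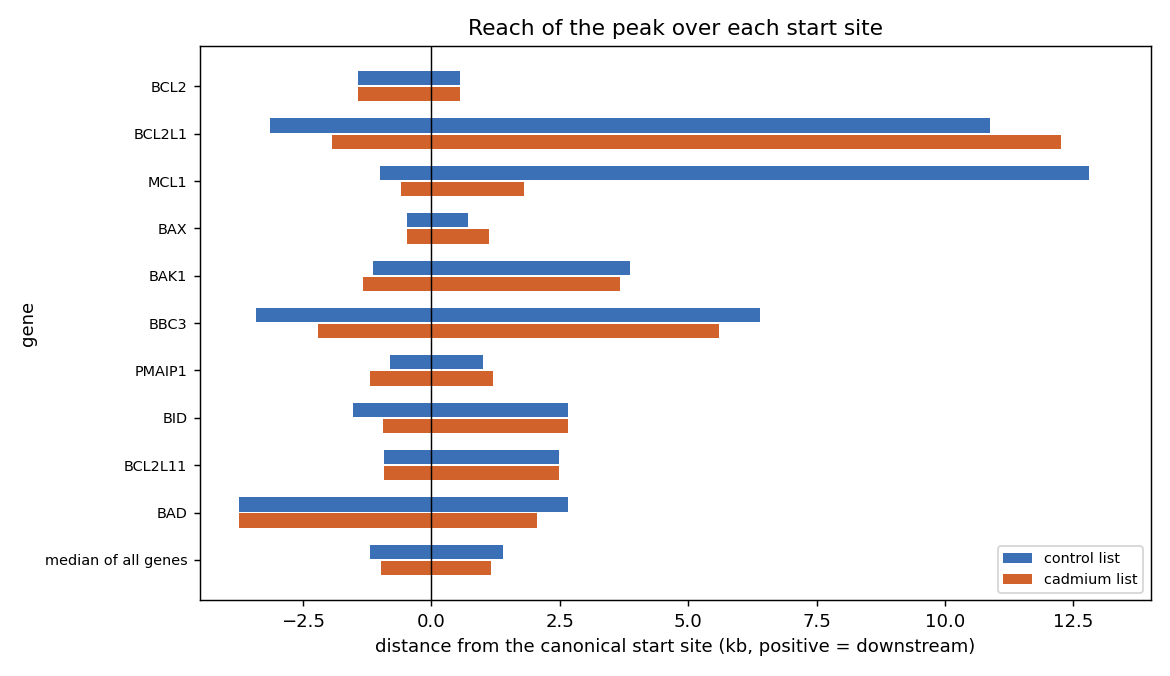
Reach of the peak over the canonical start site, in kb upstream (negative) and downstream (positive), for the control list (blue) and the cadmium list (orange) at each member, with the median edges of 12641 protein-coding genes in the last row. MCL1 shows the widest difference (12809 bp downstream in control against 1809 bp in cadmium), and the BCL2 and BCL2L11 bars are identical.

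The 49 conserved sites of the members were covered over more bases in control at 30 (61.2%), over more in cadmium at 11 (22.4%) and over equal numbers at 8 (16.3%). Over all 48627 conserved sites the shares were 58.0%, 23.7% and 18.3%. At 5 conserved sites of the members 1 control peak stood against 2 or more cadmium peaks, and at 3 sites the reverse held, beside 3.88% and 1.95% of all conserved sites.

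The motif strings were counted in the central 500 bp of each site. At the members' conserved sites the AP-1 string was present in 10 of 49, the forkhead string in 10 and the metal response element core in 19, beside 23.5%, 26.7% and 36.5% of all conserved sites. At the lost sites the counts were 1, 5 and 5 of 9, beside 24.5%, 41.1% and 28.8% of all lost sites. At the gained sites they were 1, 0 and 2 of 4, beside 32.6%, 25.5% and 30.6% of all gained sites. Over the members' whole sites, 72 of 346 core matches opened 1 and the same run of 15 letters, 12 of the 30 at lost sites among them, so these matches are not independent. A string match describes the letters only, and 4 or 9 sites are too few to set against these shares.

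The rest of the apoptosis pathway was read from fixed lists. Of the 11 other BCL2 family genes, 7 had a start-site peak in control and 8 in cadmium, beside 68.8% and 67.1% of all protein-coding genes. The median ratio over the 10 with a ratio was 0.727. In this list 5 genes were lower in cadmium by at least 1.5 times and 0 were higher, beside 37.3% and 5.59% of all protein-coding genes with a ratio. BCL2L14 was the lowest, from 6995 to 1598 bp (ratio 0.228), and its start-site peak was a lost site. BCL2L15 was the highest, from 5597 to 6596 bp (ratio 1.18).

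BCL2A1, an anti-apoptotic gene known as an NF-κB target, had no peak in control and a gained peak of 799 bp at its start site in cadmium. HRK, a BH3-only gene, had a start-site peak in cadmium alone, as part of a conserved site, and was named here after its values were seen. No gene of the core 10 had a start-site call in only 1 list, as 3.09% (control only) and 1.32% (cadmium only) of all protein-coding genes did.

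Of the 16 genes listed for the downstream mitochondrial pathway, all 16 had a start-site peak in both lists, beside 65.8% of all protein-coding genes. Their median ratio was 0.811. In this list 5 genes were lower by at least 1.5 times, beside 37.3% of all protein-coding genes with a ratio. BIRC3, an inhibitor of apoptosis, was the lowest, from 22593 to 7396 bp (ratio 0.327), and HTRA2, a mitochondrial protease, the highest, from 6747 to 8147 bp (ratio 1.21). The 10 death receptor genes also had start-site peaks in both lists, with a median ratio of 0.868 and 3 genes lower, beside the same shares of all genes. FAS, a death receptor, was the lowest, from 7995 to 2798 bp (ratio 0.35), and TRADD, an adaptor of the TNF receptor, the highest, from 14593 to 19593 bp (ratio 1.34).

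A peak near a member is not assigned to it by these data. Of the 13 gained or lost sites, 4 had an annotated start site of the member as the closest. These were BBC3 intron 3, the wider PMAIP1 lost peak, and the BID gained and downstream lost peaks. In or over the member's gene body lay 3 of the 13. Whether MTF-1 at any of these sites bears on the level of the gene was not tested, since the lists hold positions alone.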

How the data were processed

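MTF-1 CUT&RUN was analyzed in MDA-MB-231 cells, with 2 control and 2 cadmium libraries. The authors removed adaptor sequence, used Bowtie2 for alignment to hg38, merged replicates with SAMtools 1.8 and called peaks with Epic2 (listed as SICER 0.0.50 in the submitters' notes), with no control library named. The deposited files used here hold 1 list of peak positions in base pairs per condition. A last column holds 1 constant and was not used.

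Members and gene lists were chosen with earlier results of these data known. With Python 3.11.15 and numpy 2.4.6, peaks were intersected with genes from GENCODE 44 (GRCh38) and 20 kb on either side, 1 shared base making a site conserved. Window totals count bases inside the window, while site widths are whole. Ratios are cadmium over control bases. Other genes were named if closest to a described site, if a gained or lost site lay within 1 kb of their start, or if at an end of their list. CATSPERZ, FKBP2, ADAMTSL4, BCL2L13 and PLCB3 were added as neighbors after values were seen. Promoters are RefSeq entries on GRCh38. MCL1 had no entry. Printed windows near annotated exons of coding genes were shortened. Depth is unknown. The scripts were tested on simulated peaks.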

Additional observations from a re-analysis of the deposited data

How the results depend on the processing

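Of 34 alternative values for the site counts, the covered-base ratio and the start-site counts, 24 stayed within 1.5 times the reported value. These 24 include values that could not move. Joining peaks of 1 list within 600 bp left the site counts and the ratio unchanged, since the members' peaks lay farther apart than that. Only the ratio could change direction, and it stayed below 1 under each alternative. A count has no direction to reverse. The start-site counts stayed at 10 in both lists within 0.2 kb and with peaks of at least 1000 bp. They were also 10 within 3 kb and for the start of any transcript. Those 2 settings could not lower the counts, since both take in the 1 kb around the canonical start. The ratio of 0.796 lay between 0.779 (50 kb flanks) and 0.855 (BCL2L1 left out, added after seeing the data). The site counts moved with the definition. When a shared peak needed 50% of its bases covered, 18 sites were lost and 7 gained, against 9 and 4. Within gene bodies alone, 2 were lost, 1 gained and 23 conserved. With 50 kb flanks, 16 were lost and 82 conserved. Counting only sites whose closest start site was the member's, added after seeing the data, 3 were lost, 1 gained and 19 conserved. No paired analysis was possible because the peaks were called on merged replicates, and no replicate could be left out for the same reason.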
